A study of Rattus norvegicus with 399 samples.

Results

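S100a8, S100a9, Lcn2 and Fcnb are genes known for their expression in neutrophils, phagocytes of the blood. They were taken from the count table by symbol, which is the start of each probe name, and they make up 4 of the 2603 symbols on the panel, each read by 1 probe. The libraries were made from small pieces of heart, kidney, lung and the left lobe of the liver and from both ovaries of female Sprague-Dawley rats aged 9 weeks, collected on study day 5. Exposed rats had received 1,2-dichlorobenzene (1,2-DCB) at 1, 10, 30, 100, 250 or 500 ppm, or 1,4-dichlorobenzene (1,4-DCB) at 1, 10, 50, 150, 400 or 800 ppm. Both compounds are dichlorinated benzenes, with neighbouring chlorines in 1,2-DCB and opposite ones in 1,4-DCB. Controls were separate rats at 0 ppm, with their own group for each compound (the sources used here do not name the route or hours of exposure). A tissue had 3 to 5 libraries at each concentration and 8 to 10 from controls, each from a different rat, and the 5 tissues came from the same rats. Pieces of tissue hold the blood and leukocytes that were in them. The counts are of TempO-Seq, in which a pair of oligonucleotides that meet on a transcript is ligated, amplified and sequenced. In all, 390 libraries with totals of 1202354 to 69774071 counts were used (median 22555404), and the 9 that the submitters set aside were left out. Levels are CPM, the share of a library's total count that a probe took, scaled to a total of 1e+06. Changes are log2 fold changes, exposed minus control. Their standard error (SE) was worked out from the change and its test statistic in the fit.

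S100a8 and S100a9 encode small calcium-binding proteins that pair to form calprotectin, which fills the cytoplasm of neutrophils, starves microbes of zinc and manganese, and signals through the receptors Tlr4 and Ager. Lcn2 encodes lipocalin 2, a protein of neutrophil granules that binds bacterial iron carriers, but many epithelia also make it, and injured kidney tubules release it. Fcnb encodes a ficolin, a sugar-binding protein that starts the lectin pathway of complement and is made in maturing granulocytes and monocytes. C/EBP proteins and PU.1 are transcription factors of the granulocyte lineage, and NF-kB and STAT3 carry signals of inflammation to such genes.

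The promoters of 3 of the 4 genes are shown because Lcn2 differed from S100a9 and Fcnb in its pattern across tissues. They are RefSeq sequences of the rat build GRCr8, from 250 bases before the start of the gene to 50 bases after it, written 5' to 3' on the minus strand, which carries all 3 genes. S100a9 is at chr2:178490573-178490872, Lcn2 at chr3:36081731-36082030 and Fcnb at chr3:31800139-31800438. Capitals mark letters that match the motifs searched on both strands, which were TTGCNNAA for C/EBP, GAGGAA for PU.1, GGGA and TTCC with any 2 bases between them for NF-kB, TTCNNNGAA for STAT and TATAAA for the TATA box.
S100a9 promoter: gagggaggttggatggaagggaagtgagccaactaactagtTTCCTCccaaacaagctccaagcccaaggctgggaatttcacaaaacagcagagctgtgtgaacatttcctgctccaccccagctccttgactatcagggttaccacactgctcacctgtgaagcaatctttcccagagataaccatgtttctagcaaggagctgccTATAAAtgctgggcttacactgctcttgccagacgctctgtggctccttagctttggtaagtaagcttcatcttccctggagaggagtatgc
Lcn2 promoter: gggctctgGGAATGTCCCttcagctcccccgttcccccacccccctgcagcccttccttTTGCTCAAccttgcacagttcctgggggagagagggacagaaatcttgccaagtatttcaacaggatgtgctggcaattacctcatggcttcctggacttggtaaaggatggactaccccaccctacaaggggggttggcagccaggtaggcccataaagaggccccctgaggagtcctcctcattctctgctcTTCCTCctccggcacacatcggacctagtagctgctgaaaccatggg
Fcnb promoter: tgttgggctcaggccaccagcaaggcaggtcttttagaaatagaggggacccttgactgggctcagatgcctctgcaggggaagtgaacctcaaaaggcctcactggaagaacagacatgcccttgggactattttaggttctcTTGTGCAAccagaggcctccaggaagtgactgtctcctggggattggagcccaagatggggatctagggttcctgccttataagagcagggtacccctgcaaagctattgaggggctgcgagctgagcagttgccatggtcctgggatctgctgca
Positions are counted from the start of the gene and are negative before it. The S100a9 window held the PU.1 letters at -209, on the opposite strand, and a TATA box at -42. The Lcn2 window held the C/EBP letters at -191, the NF-kB letters at -242 and the PU.1 letters at 4, and the NF-kB and PU.1 letters were on the opposite strand. The Fcnb window held the C/EBP letters at -106, on the opposite strand. Among 33469 RefSeq promoter windows of this length, 10.6% held the C/EBP letters, 27.6% those of PU.1, 1.3% those of NF-kB, 8.87% those of STAT and 14.2% a TATA box. A match is a description of the letters, and the motifs did not overlap one another in these windows.

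The lung held by far the highest level of 3 of the genes. In controls, S100a9 had a median of 362 CPM in lung (range 150 to 518, n = 18 rats), against 15.2 in heart, 9.17 in ovary, 5.32 in kidney and 3.08 in liver. S100a8 had a median of 39.9 CPM in lung (17.2 to 59.5), against 1.16 in heart, 0.541 in ovary, 0.262 in kidney and 0.248 in liver. Fcnb had 8.05 CPM in lung (2.56 to 13.3), against 0.854 in ovary, 0.235 in heart, 0.141 in kidney and 0.0423 in liver. No lung overlapped with a control library of another tissue for S100a8 or S100a9. Lcn2 was high in both ovary and lung, with medians of 340 CPM in ovary (60.1 to 1100, n = 20) and 222 CPM in lung (108.2 to 591, n = 18), against 21.9 in heart, 11.3 in kidney and 2.98 in liver. A probe's CPM also depends on how well it binds, so levels are compared between tissues and not between genes. Since these are whole tissues, fewer cells of a type and less RNA per cell cannot be told apart.

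**Figure D1:**
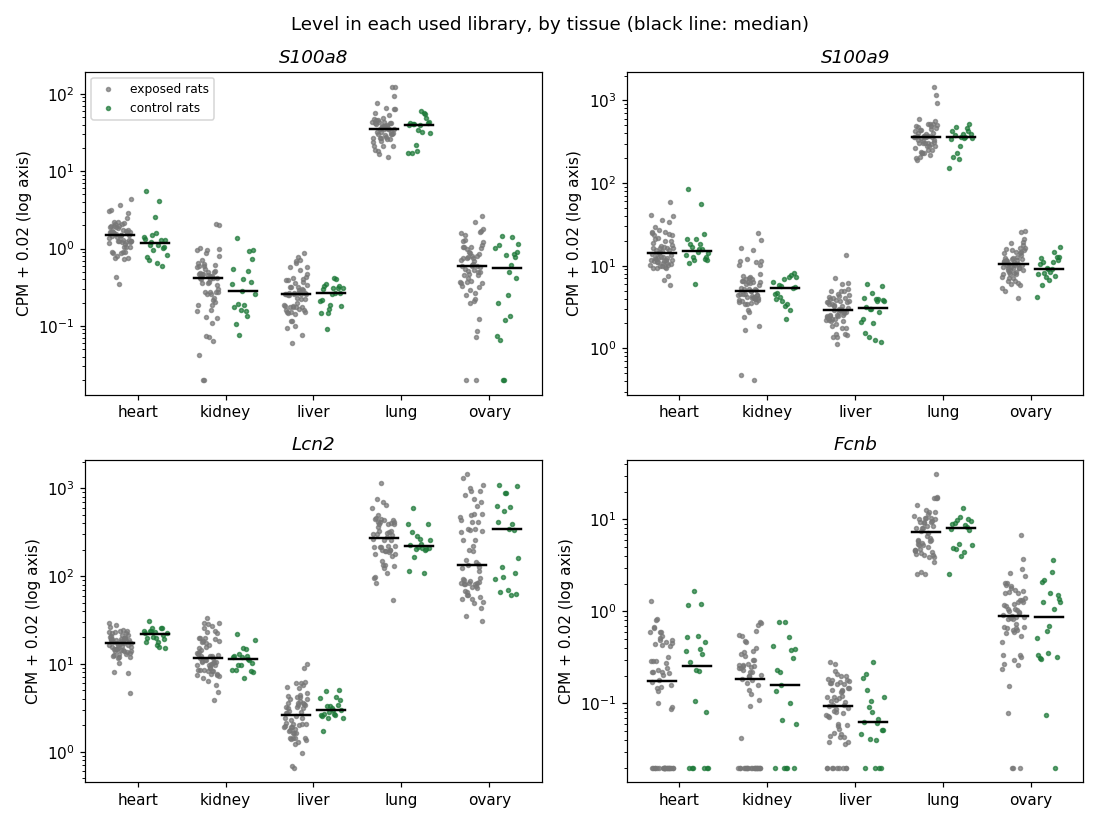
Level of each gene in every used library, on a log axis of CPM with 0.02 added so that libraries at 0 can be drawn, with exposed rats (grey) left of controls (green) in each tissue and black lines at the medians. S100a8, S100a9 and Fcnb are highest in lung, while Lcn2 is high in both lung and ovary and spreads most in ovary.

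In a fit of all tissues of a compound (edgeR quasi-likelihood, Benjamini-Hochberg adjustment over all probes), S100a9 in controls was lower in heart than in lung, at -3.21 ± 0.29 on the log2 scale in the 1,2-DCB study (heart minus lung, adjusted p = 5.96e-21) and -3.6 ± 0.34 in the 1,4-DCB study (adjusted p = 2.05e-19). The lung also exceeded heart, kidney, liver and ovary for S100a8 and Fcnb in both studies. Lcn2 did not pass the test between lung and ovary in either study (-0.44 ± 0.38, adjusted p = 0.292, and -0.17 ± 0.41, adjusted p = 0.717, lung minus ovary). Of the 10 pairs of tissues, 8 were called for S100a8, S100a9 and Lcn2 and 5 for Fcnb in each study. Most of the panel differed between tissues too, with 71.8% to 80.2% of all tested probes called over the 20 comparisons.

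The place of the liver in this order depended on the scaling. A few liver transcripts take much of the library, such as Tf (transferrin), which averaged 238000 CPM there. Scaling by TMM, which sets such transcripts aside, shifted liver levels by 2.58 on the log2 scale relative to CPM and those of the other tissues by -0.23 to -1.2. The control median of S100a9 on the TMM scale was then 19.3 in liver, second to 199 in lung, against 13.2 in heart, 4.23 in kidney and 3.84 in ovary. Heart and liver did not pass the test for any of the 4 genes in either study. The lung came first for S100a8, S100a9 and Fcnb and the ovary for Lcn2 under CPM, TMM and DESeq2 size factors. The labelled tissues were checked by Myl2, the heart muscle myosin light chain, at 335000 CPM in heart, by Tf in liver, by the steroid enzyme Cyp11a1 at 10300 CPM in ovary and by the kidney transporter Slc22a6 at 87.4 CPM in kidney; the list held no lung marker on the panel that singled out lung.

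Over all libraries of a tissue other than ovary, S100a8 and S100a9 moved together, while in controls alone they did so less evenly. Lcn2 moved apart from both genes. Over each tissue's 72 to 80 libraries, after removing the mean of each group, the levels of S100a8 and S100a9 correlated with r = 0.89 in lung, 0.55 in heart, 0.55 in liver, 0.44 in kidney and 0.18 in ovary, where S100a8 had a median of 11 counts a library. Each r is a description, since libraries of a tissue can share differences of depth and cell makeup. S100a9 and Lcn2 gave r between 0.032 and 0.2 in the 5 tissues, and S100a9 and Fcnb gave 0.41 in lung and -0.064 in ovary. In controls alone, 1 of 60 correlations between genes passed adjustment. It was S100a8 with S100a9 in the 10 control lungs of the 1,2-DCB study (Pearson r = 0.946, permutation p = 3e-05, the adjusted value 0.0018; Spearman rho = 0.952, permutation p = 0.00012), and r was 0.928 without the 2 lungs farthest from the median. In the 1,4-DCB study, S100a8 and S100a9 gave Pearson r = 0.336 in the 8 control lungs and -0.0853 in the 10 control livers. Over the 10 sets of controls this pair was positive in 9, with a median r of 0.394. No correlation of S100a9 between tissues of the same control rats passed among 20 tested (Pearson r -0.678 to 0.719), and 1 had an unadjusted permutation p under 0.05.

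The genes whose levels moved most like S100a8, S100a9 and Fcnb were of mixed kinds. Over 390 libraries and 2120 probes, S100a8 and S100a9 were most like Il1b, the inflammatory cytokine interleukin 1 beta (r = 0.327 and 0.399). In lung these values were 0.65 and 0.71. Among the next for S100a9 were Pf4, a platelet chemokine (r = 0.339), Gbp2, an interferon-induced GTPase (0.319), and Cd3d, a part of the T cell receptor complex (0.268). Those for S100a8 included Nrros (0.214), Nos3, the endothelial nitric oxide synthase (0.213), and Ambp, a gene of plasma proteins made in liver (0.211). Fcnb was most like Ptprc, the pan-leukocyte phosphatase CD45 (r = 0.274), the leukocyte adaptor Lcp2 gave 0.23 and the platelet tubulin Tubb1 0.228, and in lung it gave r = 0.68 with Fyb, a leukocyte adaptor. Values of this size are weak except in lung.

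Lcn2 went against its label as a neutrophil gene in ovary. Its nearest genes were Kcnk1, a potassium channel (r = 0.743), Grik2, a glutamate receptor (0.707), St6gal1, a sialyltransferase (0.692), and Cldn4 and Cldn7, claudins of epithelial tight junctions (0.68 and 0.664). In ovary the r with Kcnk1 was 0.97, that with Grik2 0.93 and that with Cldn4 0.86, and in kidney they were 0.74, 0.77 and 0.70. In lung none of the 5 exceeded 0.16. Lcn2 ran from 30.7 to 1440 CPM over the 80 ovaries, and its log2 level had an SD of 1.52 in the 20 control ovaries. Kcnk1 had a median of 33.9 CPM in the control ovaries and was as low as 2.12 CPM in 1 of them. Which cells of the ovary carried these transcripts was not tested.

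**Figure D2:**
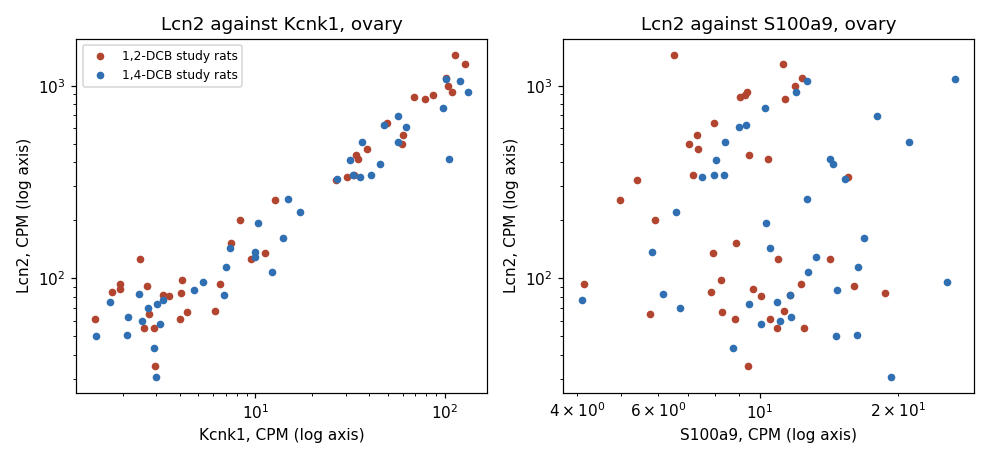
Lcn2 level in each of 80 ovaries against Kcnk1 (left) and S100a9 (right), all in CPM on log axes, with rats of the 1,2-DCB study in red and of the 1,4-DCB study in blue, exposed and control rats together. Lcn2 follows Kcnk1 closely over its range of 30.7 to 1440 CPM, whereas the points against S100a9 form no line.

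At the top concentrations, 37 of 40 tests of a gene in a tissue could be made. Fcnb had too few counts in both livers and in the hearts of the 1,4-DCB study. Over both studies together, its libraries held a median of 2 counts in liver and of 2 in heart. Its untested means were 0.0916 ± 0.0739 CPM in exposed livers and 0.0786 ± 0.0629 CPM in controls of the 1,2-DCB study, and 0.1 ± 0.0559 CPM in exposed livers and 0.0534 ± 0.0797 CPM in controls of the 1,4-DCB study (SD, n = 5 and 10). The 1,4-DCB hearts had 0.196 ± 0.237 CPM when exposed and 0.31 ± 0.363 CPM in controls. Of the 37 changes, 4 were rises and 3 were falls past an adjusted p of 0.05, and 30 were not called. S100a8 was called in 0 of its 10 comparisons by edgeR, with 1 unadjusted p under 0.05, and in 0 by DESeq2 and limma voom. Its counts were low outside lung, with medians of 8.5 to 17 a library. The 7 calls fell in 5 of the 10 combinations of tissue and compound. In the other 5, the share of all tested probes called in either direction was 8.85% in lung and 2.91% in ovary of 1,2-DCB, and 6.86% in heart, 5.03% in kidney and 34.9% in liver of 1,4-DCB.

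**Figure D3:**
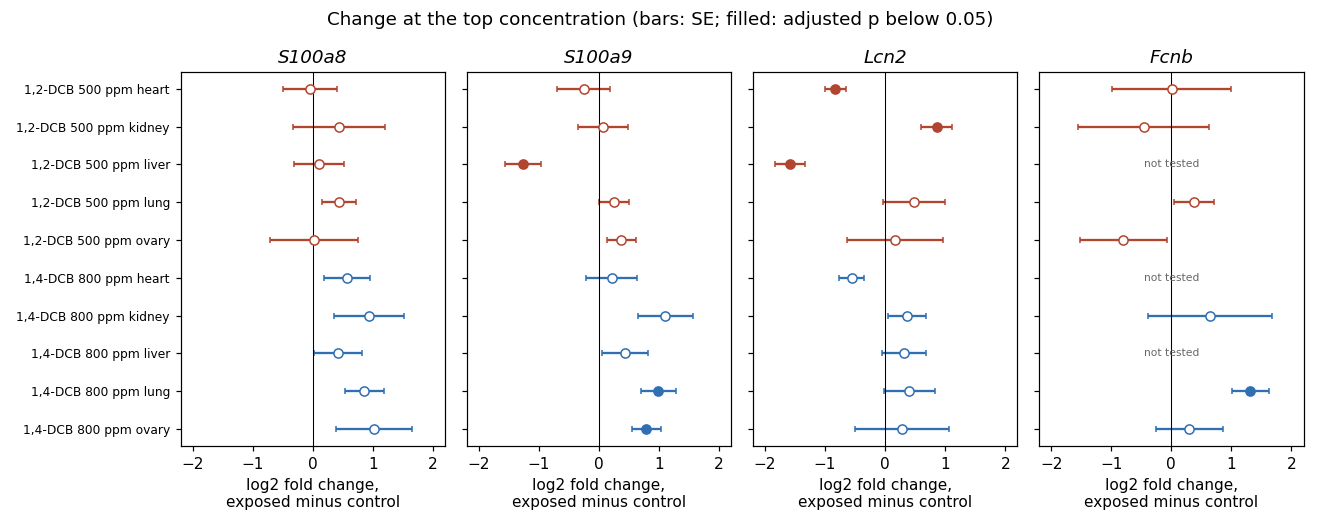
Log2 fold change of each gene at the top concentration against the compound's own controls, with 1,2-DCB in red and 1,4-DCB in blue, bars for the SE and filled points for an adjusted p below 0.05. The filled points are S100a9 and Lcn2 in 1,2-DCB liver, Lcn2 in 1,2-DCB heart and kidney, S100a9 and Fcnb in 1,4-DCB lung, and S100a9 in 1,4-DCB ovary.

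In liver, Lcn2 and S100a9 fell at 500 ppm of 1,2-DCB. Lcn2 stood at 0.636, 1.21, 1.40, 1.63 and 1.81 CPM in the exposed livers, against 1.70 to 4.89 CPM (median 2.74) in the 10 controls. Of the exposed livers 4 lay below every control. The change was -1.59 ± 0.25 (edgeR, adjusted p = 6.36e-07). S100a9 stood at 1.12, 1.37, 1.45, 1.95 and 2.54 CPM in the exposed livers, against 1.35 to 6.03 CPM (median 2.97) in controls. All 5 were below the control median, though 4 lay within the control range. Its change was -1.27 ± 0.30 (adjusted p = 0.000337). S100a8 did not pass the test (0.10 ± 0.42, adjusted p = 0.828), with means of 0.283 ± 0.221 CPM in exposed livers and 0.194 ± 0.0868 CPM in controls (SD, n = 5 and 10), at a median of 10 counts a liver. That makes 2 of 3 genes tested called lower, where 32.7% of all 2019 tested probes were called lower and 67.8% were called in either direction. TMM scaling factors were higher in the exposed livers than in controls by 0.40 on the log2 scale, against -0.16 in 1,4-DCB lung, -0.12 in 1,2-DCB kidney and under 0.1 in size elsewhere. Both genes were also lower in plain CPM, by the means of 1.34 ± 0.452 and 3.03 ± 0.912 CPM for Lcn2 and of 1.69 ± 0.567 and 3.11 ± 1.47 CPM for S100a9 in exposed and control livers (SD, n = 5 and 10).

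Lcn2 in liver was the only one of the 4 genes called below the top concentration, in 1 of 185 tests (10 had an unadjusted p under 0.05). Over the 50 comparisons at lower concentrations, 0% to 24.8% of all tested probes were called, the most at 250 ppm in this liver. Its mean was 3.03 ± 0.912 CPM in controls, 2.31 ± 0.554 at 1 ppm, 3.51 ± 1.09 at 10 ppm, 2.84 ± 1.29 at 30 ppm, 1.82 ± 0.326 at 100 ppm, 1.46 ± 0.501 at 250 ppm and 1.34 ± 0.452 at 500 ppm of 1,2-DCB (SD, n = 10 controls and 5 at each concentration). At 250 ppm the change was -1.36 ± 0.25 (adjusted p = 4.47e-05), where 11.2% of all tested probes were called lower. At 100 ppm it was -0.74 ± 0.24 and did not pass (adjusted p = 0.102). S100a9 averaged 3.89 ± 1.91 CPM at 250 ppm and was not called there.

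Other leukocyte genes were also lower in these livers. Of 9 probes tested for other neutrophil genes, 8 fell and 1 rose (median -1.1, against 0.035 for all tested probes). Among them Cyba and Cybb, subunits of the oxidase that makes superoxide, fell by 1.17 ± 0.15 and 1.03 ± 0.16 on the log2 scale (adjusted p = 1.31e-08 and 3.51e-07), and Lyz2, lysozyme, by 1.09 ± 0.18 (adjusted p = 1.21e-06). The gene that rose, named after its value was seen, was S100a11 (0.89 ± 0.20, adjusted p = 0.000246). Macrophage genes fell in 9 of 9 tests (median -1), with the complement subunit C1qc at -1.01 ± 0.10, Cd68 at -1.02 ± 0.13 and Fcer1g at -1.11 ± 0.14. These changes include the shift in scaling given above. In plain CPM, C1qc averaged 18.6 ± 1.59 in exposed livers and 28.4 ± 4.69 in controls, Fcer1g 23.7 ± 6.24 and 38.6 ± 5.66, Cybb 3.26 ± 0.857 and 5.07 ± 1.1, and Lyz2 15.3 ± 4.61 and 24.4 ± 5.07 (SD, n = 5 exposed and 10 control livers). Red cell genes fell in 3 of 3, with Hbb, a beta globin, at -1.2 ± 0.25 (adjusted p = 7.22e-05). The summed level of the 12 other neutrophil probes was 41.02 to 118.8 CPM in exposed livers and 48.6 to 72.6 CPM in controls. The summed level of the 9 macrophage genes was 66.9 to 103.6 CPM in exposed livers and 98.8 to 162 CPM in controls. That of the red cell genes was 39.9 to 120.4 CPM in exposed livers and 68.3 to 207.8 CPM in controls. No gene of these 3 lists was at 0 in all libraries of both groups. The part of fewer leukocytes or less blood in the falls of Lcn2 and S100a9 was not tested. Of 20 probes for IL-6, STAT3 and acute phase genes, 12 fell and 2 rose. Cxcl12, a chemokine that holds neutrophils in the marrow, fell by 2.27 ± 0.14 (adjusted p = 2.7e-17).

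**Figure D4:**
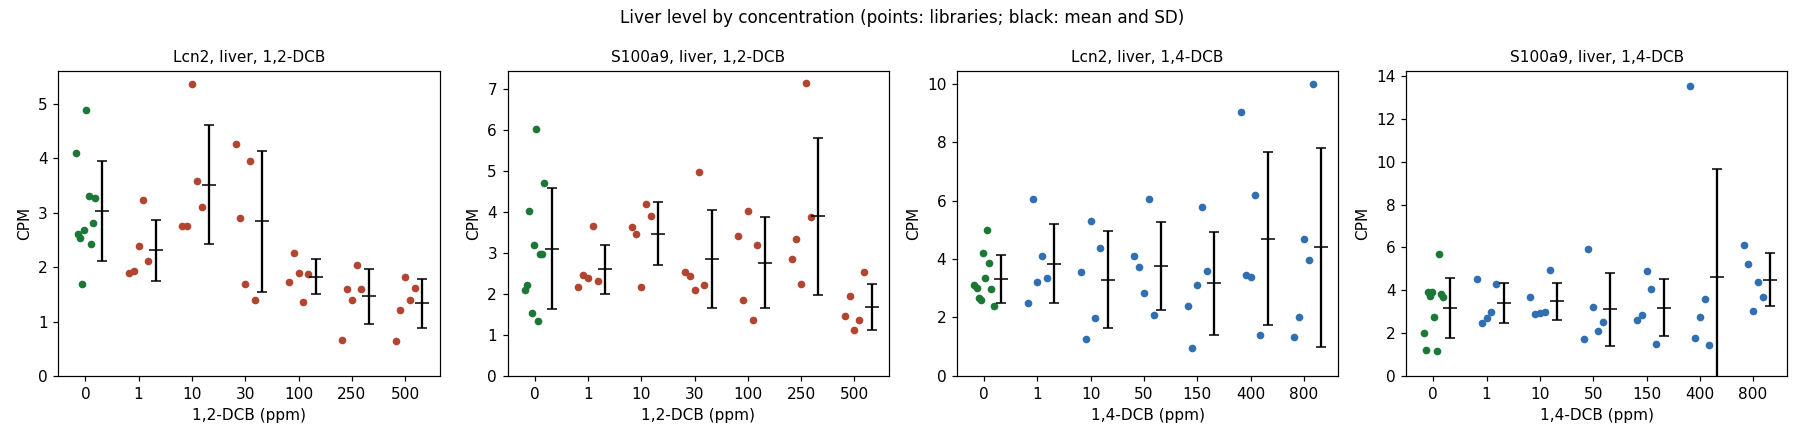
Lcn2 and S100a9 in liver by concentration, in CPM, for 1,2-DCB (red) and 1,4-DCB (blue), with controls in green at the left, 1 point a library and the mean ± SD in black (axes start at 0). Lcn2 averages 1.82 CPM or less from 100 ppm of 1,2-DCB on and S100a9 is lowest at 500 ppm, while at 400 ppm of 1,4-DCB the same rat stands highest in both panels.

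In heart, Lcn2 fell at 500 ppm of 1,2-DCB and the other genes were not called. Lcn2 stood at 10.2, 11.6, 11.9, 12.9 and 16.9 CPM in the exposed hearts, against 17.7 to 30.4 CPM (median 23.2) in the 10 controls. The groups did not overlap. The change was -0.83 ± 0.17 (adjusted p = 0.0006), where 6.79% of 2092 tested probes were called lower and 12% in either direction. Below the top, Lcn2 had means of 14.7 ± 5.66 CPM at 30 ppm, 18.9 ± 6.25 at 100 ppm and 16.4 ± 1.72 at 250 ppm, none of them called. At 800 ppm of 1,4-DCB the 5 exposed hearts had 4.65, 13.3, 13.9, 15.5 and 17.5 CPM, against 15.2 to 25.6 CPM (median 19.5) in controls. That change was -0.56 ± 0.20 and missed the threshold with edgeR (adjusted p = 0.0879) but passed with DESeq2 (-0.56, adjusted p = 0.0428). S100a9 in heart had 1 control of each study far above the rest, and its changes of -0.26 ± 0.44 with 1,2-DCB and 0.21 ± 0.43 with 1,4-DCB were not called. In the 1,2-DCB hearts, 1 of 10 other neutrophil genes fell (S100a11, -0.69 ± 0.088, adjusted p = 2.91e-07) and the 9 macrophage probes had a median of 0.12. Orm1, an acute phase protein gene, rose by 2.61 ± 0.35 (adjusted p = 6.65e-07). It was the only call among 13 probes for IL-6, STAT3 and acute phase genes, whose median change was 0.15. The summed level of the other neutrophil genes was 957.4 to 1195 CPM in exposed hearts and 1342 to 1811 CPM in controls, without overlap. Most of this sum was S100a11, at 598 ± 74.2 CPM in exposed hearts and 973 ± 98.7 CPM in controls (SD, n = 5 and 10). The 10 tested probes of the list had a median change of -0.18, against -0.018 for all tested probes. The part of these genes in the fall of Lcn2 was not tested.

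In kidney, Lcn2 rose at 500 ppm of 1,2-DCB, unevenly over the rats. Lcn2 is known as a marker of tubule injury, but the part of injury or of cell makeup in this rise was not tested. Lcn2 stood at 6.32, 11.2, 22.9, 28.2 and 33.6 CPM in the exposed kidneys, against 8.43 to 22.1 CPM (median 11.9) in the 9 controls. Of the exposed kidneys 3 lay above every control and 1 below every control. The change was 0.86 ± 0.26 (adjusted p = 0.0208), where 8.72% of 2363 tested probes were called higher and 16.4% in either direction. It missed the threshold without rat F602 (0.63, adjusted p = 0.131) or rat F605 (0.71, adjusted p = 0.0871), in a fit of only this group and its controls (adjusted p = 0.0624) and with limma voom (adjusted p = 0.0931). S100a8, S100a9 and Fcnb were not called in these kidneys. Some leukocyte genes fell in these kidneys. Of 11 other neutrophil probes 3 fell, among them the gelatinase Mmp9 (-1.94 ± 0.49, adjusted p = 0.00525), and of 9 macrophage probes 4 fell, with C1qc at -0.88 ± 0.16 (adjusted p = 6.7e-05). The summed level of the macrophage genes was 98.8 to 160.8 CPM in exposed kidneys and 180.8 to 322.8 CPM in controls, and its part in the Lcn2 result was not tested. The keratin Krt8 was the 1 of 7 epithelial probes called and rose by 0.87 ± 0.10 (adjusted p = 3.29e-08). The epithelial genes summed to 384.6 to 638.4 CPM in exposed kidneys and 407.6 to 626.6 CPM in controls. At 800 ppm of 1,4-DCB, the kidneys had 6.34, 7.87, 10.2, 11.5 and 20.3 CPM of S100a9, a mean of 11.3 ± 5.46 CPM against 5.28 ± 2.21 CPM in 10 controls. All 5 exceeded the control median and 3 exceeded every control, yet the change of 1.10 ± 0.46 was not called (adjusted p = 0.179).

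In lung, S100a9 and Fcnb rose at 800 ppm of 1,4-DCB. Fcnb stood at 12.1, 16.9, 17.1, 17.4 and 30.98 CPM in the exposed lungs, against 4.42 to 13.3 CPM (median 8.46) in the 8 controls. Of the exposed lungs 4 lay above every control. The change was 1.32 ± 0.30 (adjusted p = 0.00731), and it stayed called in each of 13 fits without 1 exposed or control lung. S100a9 stood at 467, 510, 557, 943 and 1175 CPM in the exposed lungs, against 347 to 518 CPM (median 392) in controls. Of these 3 lay above every control. Its change of 0.99 ± 0.29 was near the threshold (adjusted p = 0.0421). S100a8 stood at 35.6, 63.1, 63.7, 93.7 and 121.96 CPM in the exposed lungs, against 31.03 to 59.5 CPM in controls. It had a similar change of 0.86 ± 0.33 but did not pass (adjusted p = 0.131). Lcn2 did not follow, with means of 268 ± 130 CPM in exposed lungs and 226 ± 79.3 CPM in controls (0.40 ± 0.42, adjusted p = 0.653). So 2 of 4 genes were called higher, where 2.87% of 2334 tested probes were, and 5.91% were called in either direction.

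The call of S100a9 in lung was lost in 9 of the 13 fits without 1 lung, namely without control F1, F3, F4, F6, F9 or F10 or exposed rat F603, F604 or F605 (change 0.79 to 1.10 over all 13, adjusted p up to 0.144). It was also lost with limma voom (adjusted p = 0.0539) and when the lungs set aside by the submitters were added (adjusted p = 0.0968). Among other genes of these lungs, Il1b rose by 0.68 ± 0.17 (adjusted p = 0.0165). It was the only call among 19 probes for IL-1, TNF and NF-kB genes, whose median change was 0.05. Of 17 probes for IL-6, STAT3 and acute phase genes, 1 rose and 3 fell (median -0.22). The myeloid kinase Fgr rose by 0.50 ± 0.14 (adjusted p = 0.0255), the only call among 12 other neutrophil genes. Camp, a granule peptide of neutrophils named after its value was seen, stood at 0.88 ± 0.28 (adjusted p = 0.0581) and was not called. Macrophage genes rose in 2 of 9 tests, C1qc by 0.58 ± 0.15 and Tyrobp by 0.41 ± 0.11. Alas2, the heme synthesis enzyme of red cells, rose by 0.82 ± 0.19 (adjusted p = 0.00965). The summed level of the red cell genes was 8899 to 12860 CPM in exposed lungs and 6482 to 10430 CPM in controls. That of the macrophage genes was 1329 to 1867 CPM in exposed lungs and 1333 to 1647 CPM in controls. The summed level of the other neutrophil genes, mostly Lyz2, was 61030 to 90760 CPM in exposed lungs and 70220 to 102800 CPM in controls. The epithelial genes summed to 1861 to 2177 CPM in exposed lungs and 1404 to 1713 CPM in controls, without overlap, and the keratin Krt7 was the 1 of 6 epithelial probes called (0.48 ± 0.091, adjusted p = 0.00126). The endothelial genes summed to 1827 to 2215 CPM in exposed lungs and 2198 to 2930 CPM in controls, and Kdr, a receptor for vascular endothelial growth factor, fell by 0.48 ± 0.15 on the log2 scale (adjusted p = 0.0487). The part of blood or cell makeup in these rises was not tested. The 9 probes for neutrophil chemoattractants and their receptors had a median change of 0.029, against -0.023 for all tested probes.

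In the 1,2-DCB study the lungs of 500 ppm gave no call. S100a9 stood at 304.4, 361, 361 and 387 CPM in the 4 exposed lungs, against 150 to 473 CPM (median 311) in 10 controls (0.24 ± 0.25, adjusted p = 0.644). The change was 0.43 ± 0.29 for S100a8 (adjusted p = 0.435) and 0.38 ± 0.34 for Fcnb (adjusted p = 0.603). Fcnb stood at 2.557 CPM in rat F602 and at 10.3 to 12.8 CPM in the other 3 exposed lungs, and without F602 its change was 0.67, still not called (adjusted p = 0.285). Lcn2 stood at 124.1, 258.8, 438.6 and 692 CPM in the exposed lungs against a mean of 278 CPM in the 10 controls, and was not called (0.48 ± 0.52, adjusted p = 0.675).

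In ovary, S100a9 rose at 800 ppm of 1,4-DCB and the other 3 genes were not called. It stood at 15.4, 16.3, 19.3, 21.2 and 26.6 CPM in the exposed ovaries, against 6.71 to 16.9 CPM (median 11.4) in 10 controls. All 5 lay above the control median and 3 above every control. The change was 0.78 ± 0.24 (adjusted p = 0.0354), where 4.23% of 2386 tested probes were called higher and 8.47% in either direction. It missed the threshold in 7 of 15 fits without 1 ovary, those without control F1, F2, F3 or F6 or exposed rat F602, F603 or F604 (change 0.68 to 0.87 over all 15, adjusted p up to 0.117). S100a8 had means of 1.40 ± 0.844 CPM in exposed ovaries and 0.681 ± 0.396 CPM in controls and was not called (1.02 ± 0.63, adjusted p = 0.367). Lcn2 ran from 30.7 to 1084 CPM in the exposed ovaries, against 60.1 to 1051 CPM in controls. At 500 ppm of 1,2-DCB, S100a9 had means of 11.3 ± 3.25 CPM in exposed ovaries and 8.55 ± 2.45 CPM in controls (SD, n = 5 and 10) and was not called (0.37 ± 0.24, adjusted p = 0.446). In the 1,4-DCB ovaries, the 12 other neutrophil probes had a median change of -0.16 and the 9 macrophage probes one of 0.29. Of 18 probes for IL-6, STAT3 and acute phase genes, 3 rose and 1 fell, with a median of -0.047. Among those that rose were A2m and Hp, acute phase genes of the rat, by 2.29 ± 0.38 (adjusted p = 0.00018) and 1.88 ± 0.45 (adjusted p = 0.00681). Of 9 probes for neutrophil chemoattractants and their receptors 2 rose, with Cxcl12 at 0.72 ± 0.17 (adjusted p = 0.00585), while the median of the 9 was -0.11. Their summed level, most of it Cxcl12, was 694.6 to 787.3 CPM in exposed ovaries and 363.6 to 687.3 CPM in controls, without overlap. Of 8 endothelial probes 2 rose and 0 fell, and the median of the 8 was -0.24. The 2 were Kdr (0.62 ± 0.14, adjusted p = 0.00331) and Vcam1 (0.97 ± 0.22, adjusted p = 0.00449). Lhcgr, the receptor for luteinizing hormone, rose by 1.82 ± 0.30 (adjusted p = 0.000168). The part of these genes or of cell makeup in the rise of S100a9 was not tested.

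One rat stood out below the top concentration. Rat F501 of 400 ppm 1,4-DCB had the highest S100a9 of its group in all 5 tissues and exceeded every control of its study in each. Its S100a9 was 1473 CPM in lung, against 280 and 312 CPM in the other 2 lungs of the group, and 58.4 CPM in heart, against 5.85 to 20.1 CPM in the others. It had 24.6 CPM in kidney (others 1.87 to 5.87), 13.5 CPM in liver (others 1.43 to 3.61) and 25.6 CPM in ovary (others 8.73 to 17.98). It was also the highest of its group for Fcnb in 5 tissues and for S100a8 in 4, but for Lcn2 only in liver, at 9.05 CPM. The group's lung mean of S100a9, 688 ± 680 CPM (SD, n = 3), rests on this rat, and no gene was called at 400 ppm. The lungs of rats F502 and F504 of this group were set aside by the submitters as outliers.

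**Figure D5:**
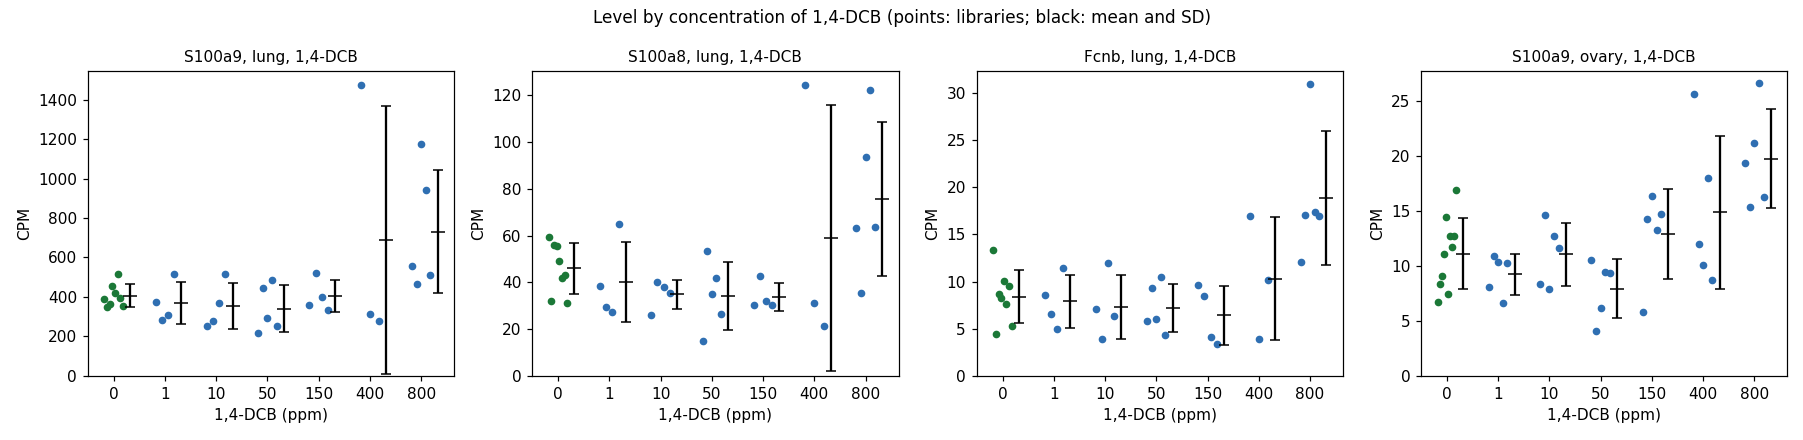
S100a9, S100a8 and Fcnb in lung and S100a9 in ovary by concentration of 1,4-DCB, in CPM, with controls in green at the left, 1 point a library and the mean ± SD in black. The 5 rats of 800 ppm lie mostly above the controls in each panel, and 1 lung of 400 ppm reaches 1473 CPM of S100a9.

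The changes with 1,2-DCB differed between liver and other tissues. The change of S100a9 was lower in liver than in kidney (kidney minus liver 1.49 ± 0.50, adjusted p = 0.0115), lung (liver minus lung -1.7 ± 0.50, adjusted p = 0.00351), ovary (liver minus ovary -1.8 ± 0.495, adjusted p = 0.00145) and heart (heart minus liver 1.21 ± 0.49, adjusted p = 0.0395). Lcn2 differed between kidney and liver by 2.58 ± 0.71 (adjusted p = 0.00175), between liver and lung by -2.26 ± 0.72 (adjusted p = 0.00744) and between liver and ovary by -1.9 ± 0.70 (adjusted p = 0.0196). Of all probes, 38.7% were called between the changes in heart and liver, 40.1% between kidney and liver, 38.9% between liver and lung and 41.4% between liver and ovary. These 7 of 40 differences were also called with the rat as a block. The S100a9 difference from heart missed the threshold in 8 of 15 fits without 1 rat, those without control F5, F6, F8, F9 or F10 or exposed rat F603, F604 or F605 (0.996 to 1.81). Without rat F602, the Lcn2 differences from lung (-1.64, adjusted p = 0.0939) and ovary (-1.58, adjusted p = 0.0868) were not called. With 1,4-DCB, 0 of 40 differences between tissues were called by edgeR, with or without the block, and 0 had an unadjusted p under 0.05, where 0.705% to 21.1% of all tested probes were called.

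The compounds share only the concentrations of 1 and 10 ppm. There, 0 of 38 differences between the change with 1,2-DCB and the change with 1,4-DCB were called (edgeR, smallest adjusted p = 0.664), and 1 had an unadjusted p under 0.05, Fcnb in heart at 10 ppm, where counts were near 0. In the same comparisons at most 1.17% of all tested probes were called. For S100a9 in lung the difference at 10 ppm was 0.53, with a 95% interval of -0.24 to 1.3, and for Lcn2 in liver it was 0.27 (-0.60 to 1.14). The intervals are wide, with half-widths of 0.51 to 3.61, so equal responses are not shown. The 2 control groups did not pass a difference for any of the 19 tests of a gene in a tissue (0 called, 0 with an unadjusted p under 0.05). At the top, 500 ppm of 1,2-DCB and 800 ppm of 1,4-DCB are different concentrations, and the values stand side by side without a test. S100a9 in liver was at -1.27 ± 0.30 and 0.43 ± 0.39, Lcn2 in liver at -1.59 ± 0.25 and 0.32 ± 0.37, S100a9 in lung at 0.24 ± 0.25 and 0.99 ± 0.29, and Lcn2 in heart at -0.83 ± 0.17 and -0.56 ± 0.20.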

How the data were processed

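Raw whole-number counts per probe were deposited by the authors in 1 table of 399 libraries and 2654 probes, adjusted for probe attenuation, so the counts of 104 probes come in steps of 3 to 10 (S100a9 in steps of 3) and carry more counting error than their size shows. Reads were aligned with Bowtie 1.3.1, per the submitters' processing notes; no build is named in these sources. The 9 libraries marked as not used, per the labels, were left out. CPM is the deposited count over the library total, times 1e+06. Changes were tested with edgeR 4.0.16 in R 4.3.3 (robust quasi-likelihood, TMM, filterByExpr), with 1 fit for each tissue and compound of 7 groups and Benjamini-Hochberg adjustment over all tested probes at 0.05. Compounds were compared in a fit of each tissue, and tissues in a fit of each compound. Correlations used log2 CPM with a prior count of 2 and permutation tests (up to 1e+05 resamples). Alternatives were DESeq2 1.42.0, limma 3.58.1 (voom), other filters and scalings, and leaving out single rats. The fits were tested on simulated data. Tissues of the same rat number in the labels come from the same rat. Deviations of same-numbered samples had a median r of 0.0709 to 0.163 over 1858 probes. No value for samples of different numbers is given, so this r does not test the pairing. Rats were the replicates. The genes and the 15 gene lists were chosen with earlier results of these data known. In the check of the tissues, the genes named are the most abundant of the tissue identity list in heart, liver and ovary. In kidney that gene was Tf (898 CPM), and Slc22a6 was named there outside this rule. Besides these and the 4 genes, those named are the 3 called genes with the lowest p in a list at most, the 5 probes most like each gene, and exceptions marked as named after their values were seen. One gene that this rule picks is not reported here.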

Additional observations from a re-analysis of the deposited data

Results flagged for a closer look

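Levels on the log2 scale were looked at in 208 groups of 4 to 10 libraries, at every concentration and in controls, where the gene had a median of at least 10 counts. Of these, 17 held a library far from the others, where chance alone gives about 1 in 20. S100a9 was 85.44 CPM in the heart of control rat F3 of the 1,2-DCB study (others 5.93 to 21.1 CPM) and 55.79 CPM in the heart of control rat F4 of the 1,4-DCB study (others 11.7 to 24.3 CPM). The same heart of rat F4 had 4.098 CPM of S100a8 (others 0.583 to 1.55 CPM). Lcn2 was 4.648 CPM in the heart of rat F601 at 800 ppm of 1,4-DCB (others 13.3 to 17.5 CPM) and 22.15 CPM in the kidney of control rat F6 of the 1,2-DCB study (others 8.43 to 12.8 CPM). Fcnb was 2.557 CPM in the lung of rat F602 at 500 ppm of 1,2-DCB (others 10.3 to 12.8 CPM). The other 11 were at lower concentrations. With 1,2-DCB, rat F104 at 1 ppm had 10.07 CPM of S100a9 in kidney (others 3.66 to 4.49 CPM) and 3.649 CPM in liver (others 2.16 to 2.47 CPM), and rat F101 at 1 ppm had 10.98 CPM of Fcnb in lung (others 4.19 to 4.61 CPM). At 10 ppm, S100a8 was 18.72 CPM in the lung of rat F202 (others 41.1 to 56.6 CPM) and S100a9 was 4.96 CPM in the ovary of rat F203 (others 10.9 to 12.3 CPM). S100a9 was 4.975 CPM in the liver of rat F304 at 30 ppm (others 2.1 to 2.54 CPM), and Lcn2 was 1141 CPM in the lung of rat F501 at 250 ppm (others 132.3 to 217 CPM). With 1,4-DCB, S100a9 was 0.3939 CPM in the kidney of rat F301 at 50 ppm (others 3.94 to 5.22 CPM). At 150 ppm, S100a8 was 0.05743 CPM in the liver of rat F401 (others 0.275 to 0.387 CPM), S100a9 was 5.826 CPM in the ovary of the same rat (others 13.3 to 16.4 CPM), and Lcn2 was 414 CPM in the ovary of rat F402 (others 86.7 to 135.8 CPM). Rat F501 at 400 ppm of 1,4-DCB was not among the 17 on this scale. Its lung could not be, since that group held 3 libraries and was not looked at.

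With 1,2-DCB, 7 changes differed between tissues by the test of the difference. For S100a9 they were heart minus liver (1.21), kidney minus liver (1.49), liver minus lung (-1.7) and liver minus ovary (-1.8). For Lcn2 they were kidney minus liver (2.58), liver minus lung (-2.26) and liver minus ovary (-1.9).

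Among 36 values in libraries that the submitters did not use, 8 were above the highest control and 1 was above it also by its exact Poisson lower bound. That was Lcn2 at 748 CPM in the lung of rat F504 at 400 ppm of 1,4-DCB, where the highest used control lung had 390 CPM. Poisson bounds cover counting error only.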

How the results depend on the processing

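Over 73 results and 1946 combinations of a result and a setting, 1838 were labelled the same. For a single change the label means that it kept its direction and its side of the threshold. A count of calls was labelled the same also when it moved by a small ratio, so single calls could be lost within it. One such count was that of 1,2-DCB changes that differed between tissues, which ran from 5 to 7 without 1 rat. Called counts at the top became 0 in 1,2-DCB heart, kidney and liver and in 1,4-DCB ovary with a filter at a mean of 20 CPM, which leaves those genes untested, and 1 in 1,4-DCB lung; the lower concentrations of 1,2-DCB liver then had 0. With limma voom the count was 0 in 1,2-DCB kidney and 1 in 1,4-DCB lung, with a fit limited to the top group and controls it was 0 in 1,2-DCB kidney, and with the 9 unused libraries it was 1 in 1,4-DCB lung. DESeq2 called 2 at the lower concentrations of 1,2-DCB liver and 1 at the top in 1,4-DCB heart. Leaving out 1 rat gave 0 to 1 at the lower concentrations of 1,2-DCB heart (1 without rat F301 of 30 ppm), 0 to 1 at the top in 1,2-DCB kidney, 1 to 2 in 1,4-DCB lung and 0 to 1 in 1,4-DCB ovary. For these cases the cause was not tested.

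Directions reversed only for changes that were not called. With voom they were S100a9 in 1,2-DCB heart (0.02431) and kidney (-0.01717), Fcnb in 1,2-DCB kidney (0.03757), S100a8 in 1,2-DCB liver (-0.3339) and Lcn2 in 1,4-DCB ovary (-0.04542). Without 1 rat, in the 1,2-DCB study, S100a8 ran from -0.5661 to 0.4343 in heart, -0.001291 to 1.02 in kidney, -0.3407 to 0.4102 in liver and -0.4388 to 0.3902 in ovary; S100a9 from -0.6422 to 0.3903 in heart and -0.09423 to 0.2026 in kidney. Lcn2 ran from -0.1193 to 0.7678 in lung and -0.1608 to 0.4568 in ovary, and Fcnb from -0.1732 to 0.2378 in heart and -0.6382 to 0.04298 in kidney. In the 1,4-DCB study, S100a8 in heart ran from -0.03096 to 0.9968 and S100a9 from -0.1419 to 0.5729. Lcn2 ran from -0.0767 to 0.582 in kidney, -0.2783 to 0.5335 in liver and -0.4631 to 0.688 in ovary, and Fcnb from -0.1468 to 0.5409 in ovary.

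With the rat as a replicate block, 30 of 40 tissue pairs differed in level in each study, against 29 without it, and 7 and 0 changes differed between tissues, as without it. Leaving out rat F501 of 1,4-DCB or rat F201 of 1,2-DCB, chosen after seeing the data, changed no called count. Low counts outside lung limit S100a8 and Fcnb.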
